A study of Rattus norvegicus with 10 samples.

Results

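Pdgfra, Sox6, Foxj3, Zbtb18, Elovl7 and Lingo1 have been reported as targets of miR-219 in the oligodendrocyte lineage, and their RNA was followed here in primary rat cells. The 6 genes were chosen by symbol, and all 6 were found among the 23487 genes of the count table. The question was whether libraries given miR-145 and miR-219 mimics together fell below libraries given the miR-145 mimic alone.

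RNA was sequenced from Sprague-Dawley rat oligodendrocyte progenitor cells (OPCs) and from oligodendrocytes (OLs) derived from them, in 5 groups of 2 libraries. All cells came from mixed glial cultures of cerebral cortex from pups of postnatal day 1 to 3. Per the labels, they were transfected with miRNA mimics or inhibitors at 30 nM. OLs had received miR-145 and miR-219 mimics together (OL miR-145+miR-219), the miR-145 mimic (OL miR-145) or a scrambled mimic (OL miR-ctl), and were collected 5 days later. OPCs had received a miR-145 inhibitor (OPC anti-miR-145) or a scrambled inhibitor (OPC anti-miR-ctl) and were collected 24 h later. The sequencing methods of the paper instead name lentiviral delivery for miR-145 and its control, whereas its account of the experiment names mimics, and the labels were followed. No group was given miR-219 alone. The dose is given as 30 nM for every group, and whether this held for each mimic or for the pair together is not stated. OL miR-145+miR-219 may therefore also differ from OL miR-145 in miR-145 dose or in total oligonucleotide, which cannot be told apart from added miR-219. OPC medium was supplemented with FGF2 and PDGFAA, the ligand of the receptor encoded by Pdgfra, and OL medium with T3 and CNTF. The paper describes the move to OL medium as a partial medium change, so some FGF2 and PDGFAA may have remained. The cultures are enriched and not pure, so a change in the RNA of a gene may come from fewer cells of a type or from less RNA per cell, which cannot be told apart in bulk libraries.

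The titles and descriptions of the 2 OL miR-145 libraries name miR-145 alone, whereas their treatment field also names miR-219. Groups were taken from the titles. These libraries hold messenger RNA, so neither mature miRNA was measured and the presence of the miR-219 mimic was not checked here. This doubt touches every value that uses OL miR-145, against OL miR-145+miR-219 and against OL miR-ctl alike. The paper defines replicates of primary cultures in general as cultures from separate animals, but no source gives the animal or culture behind a library, so the p-values measure the spread between these libraries.

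MiR-219 is abundant in OLs and rises as OPCs differentiate. A miRNA guides the silencing complex to messenger RNAs that pair with its seed, bases 2 to 8 of the mature strand, and such pairing usually lowers the RNA or its translation. Published accounts place miR-219 upstream of genes that hold OPCs in the progenitor state, so its known targets are usually read as brakes on differentiation. Among the 6 genes, Pdgfra encodes the receptor for PDGF-AA, the chief OPC mitogen. Sox6, Foxj3 and Zbtb18 encode nuclear factors, of which Sox6 is a SoxD factor that represses terminal differentiation, Foxj3 is a forkhead factor and Zbtb18 is a zinc finger repressor. Elovl7 encodes an enzyme that elongates long fatty acids, and Lingo1 encodes a membrane protein of the Nogo receptor complex that restrains differentiation and myelination.

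The mature strands of rat miR-219a are shown because they define what a miR-219 mimic could pair with. They are written from 5′ to 3′, taken from RefSeq with coordinates on GRCr8, and the seed is in capitals.
rno-miR-219a-5p: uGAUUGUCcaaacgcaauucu
rno-miR-219a-2-3p: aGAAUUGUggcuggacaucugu
rno-miR-219a-1-3p: aGAGUUGCgucuggacgucccg
In the RefSeq set used, the 5p strand is listed under Mir219-2 at chr3:33516561-33516581, with the 2-3p strand at chr3:33516517-33516538, both on the minus strand. The 1-3p strand is listed under Mir219a1 at chr20:4831641-4831662 on the plus strand. Whether Mir219a1 also yields the 5p strand was not checked here. The 3 seeds differ from each other, and each was carried by 1 of the 724 mature strands in the table. The complement of the 5p seed, read in a transcript, is GACAATC. The labels do not state which strand the mimic carried, and transcripts were not searched for these letters here.

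Library totals ran from 33505706 to 42684206 estimated counts. Levels are given as CPM, the counts of a gene scaled to a common library size, with TMM factors over the 10 libraries. CPM is not divided by gene length, so levels are compared only within a gene. A gene was called when its adjusted p (Benjamini-Hochberg over all genes tested) was under 0.05 in edgeR's quasi-likelihood test of the 4 libraries compared. All 6 genes passed the filter on low counts in every comparison.

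Adding miR-219 to miR-145 was accompanied by no called change in any of the 6 genes. Zbtb18 was the 1 gene with both OL miR-145+miR-219 libraries below both OL miR-145 libraries. Elovl7 had a higher mean with miR-219 than without, whereas the log2 fold changes of Pdgfra, Sox6, Foxj3 and Lingo1 lay between -0.13 and 0.15. Over all genes, edgeR called 0 of 15501 (0%) and gave an unadjusted p under 0.05 to 228 (1.47%), whereas DESeq2 called 9. None of the 6 genes was among these 228, and none was called by DESeq2. Adjusted p was 1 for each of the 6 in edgeR.

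Zbtb18 (ENSRNOG00000004423) stood at 37.8 and 30.4 CPM in OL miR-145+miR-219 and at 44.0 and 39.2 CPM in OL miR-145. The groups did not overlap, which was also so in this direction for 11.2% of all genes tested. The log2 fold change was -0.30 (SE 0.15), with a 95% interval from -0.67 to 0.08 and an unadjusted edgeR p of 0.0999. In OL miR-ctl the gene stood at 35.2 and 32.7 CPM, so the level with both mimics (34.1 ± 5.25 CPM, SD, n = 2) lay by the control level (34.0 ± 1.78 CPM). The log2 fold change of Zbtb18 stayed below 0 with each library left out in turn, between -0.46 and -0.15.

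Pdgfra (ENSRNOG00000002244) stood at 185 and 148 CPM with both mimics and at 169 and 174 CPM with miR-145 alone, so 1 library lay above and 1 below the miR-145 pair. Its log2 fold change was -0.05 (SE 0.14, 95% interval -0.42 to 0.32), and that interval covers a fall and a rise of similar size. Without OL miR-145+miR-219 replicate 2 the value was 0.10.

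Sox6 (ENSRNOG00000020514) stood at 115 and 93.3 CPM with both mimics and at 95.4 and 90.7 CPM with miR-145 alone. The groups overlapped, and the log2 fold change was 0.15 (SE 0.13, 95% interval -0.20 to 0.50). The positive value rested on OL miR-145+miR-219 replicate 1, without which it was -0.002.

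Foxj3 (ENSRNOG00000061851) stood at 45.2 and 35.7 CPM with both mimics and at 45.2 and 42.7 CPM with miR-145 alone. The first library with both mimics lay at the level of the higher miR-145 library and the second below both. This gave a log2 fold change of -0.13 (SE 0.14, 95% interval -0.51 to 0.25), and it was 0.03 without OL miR-145+miR-219 replicate 2.

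Elovl7 (ENSRNOG00000010450) had the largest SE of the 6 genes, and stood at 7.26 and 13.1 CPM with both mimics and at 4.39 and 7.42 CPM with miR-145 alone. The lower library with both mimics lay just under the higher miR-145 library, so the groups overlapped. The log2 fold change was 0.77 (SE 0.41, 95% interval -0.29 to 1.82, unadjusted edgeR p 0.119), the opposite of a fall. It stayed above 0 with each library left out, but moved between 0.28 without OL miR-145+miR-219 replicate 2 and 1.22 without OL miR-145 replicate 2.

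Lingo1 (ENSRNOG00000017193) stood at 30.3 and 23.9 CPM with both mimics and at 34.4 and 19.3 CPM with miR-145 alone. The libraries with both mimics lay inside the range of the miR-145 libraries. Their log2 fold change was 0.01 (SE 0.30, 95% interval -0.76 to 0.78), an interval that reaches far on both sides of 0. It was -0.34 without OL miR-145 replicate 2 and 0.47 without OL miR-145 replicate 1.

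Over the 6 genes the median log2 fold change was -0.02, beside -0.003 over all genes tested. Of the 6, 3 lay below 0, beside 50.7% of all genes. These counts describe the 6 genes, and no test was run over them as a list.

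**Figure D1:**
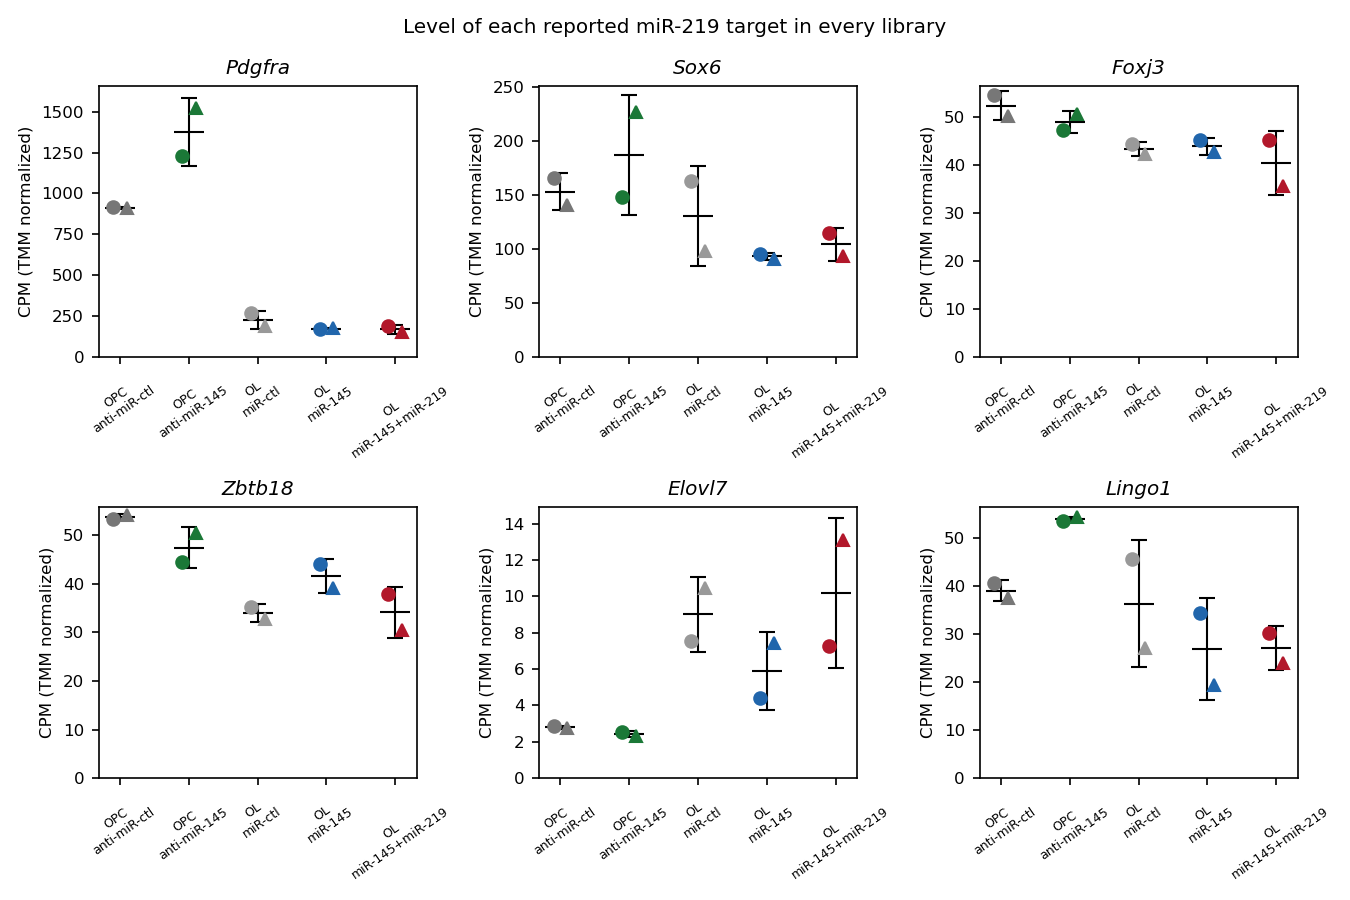
The level of each gene in every library, in CPM after TMM scaling on an axis from 0, with circles for replicate 1, triangles for replicate 2, long bars at the group mean and whiskers of 1 SD (n = 2). Pdgfra falls from 908 CPM or more in both OPC groups to 265 CPM or less in the OL groups, Elovl7 is highest in the OL groups, and the red and blue OL points overlap for every gene but Zbtb18.

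**Figure D2:**
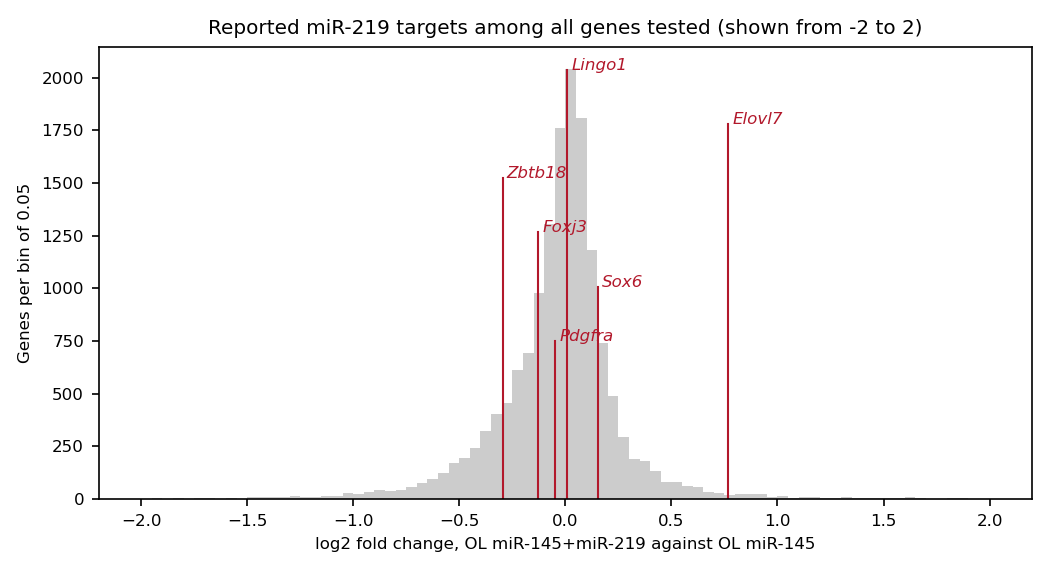
Log2 fold changes over the genes tested when miR-219 was added to miR-145 in OLs, in bins of 0.05 and shown between -2 and 2, with a line at the value of each of the 6 genes. The heights of the lines only separate the names. Elovl7 at 0.77 and Zbtb18 at -0.30 lie away from the centre, and the other 4 genes sit near 0.

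**Figure D3:**
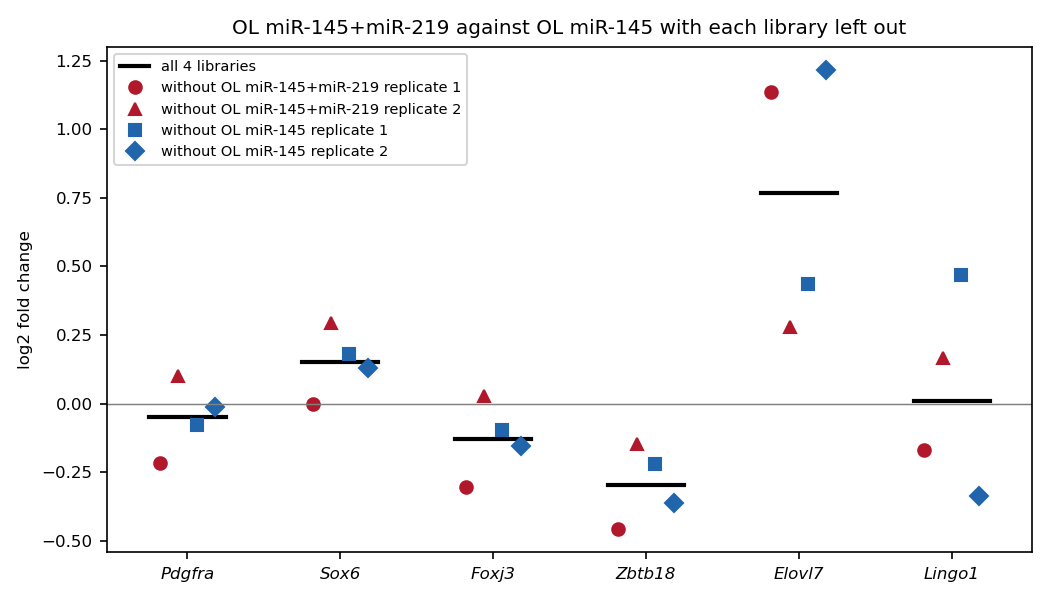
The log2 fold change of OL miR-145+miR-219 against OL miR-145 for each gene with all 4 libraries (black bars) and with each library left out (points). Points lie on both sides of 0 for Pdgfra, Sox6, Foxj3 and Lingo1, all below 0 for Zbtb18 and all above 0 for Elovl7. For Zbtb18 the groups did not overlap, so its sign could not change.

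Other genes of the same pathways, from lists chosen with earlier results of these data known, were not called in this comparison either, since no gene was. Among 6 tested genes of a list of other reported miR-219 targets, 4 lay above and 2 below 0. Pard3, a polarity protein, had a log2 fold change of 0.14 (SE 0.10, unadjusted edgeR p 0.238), and Etv5, an ETS factor downstream of FGF and PDGF signals, had -0.26 (SE 0.29, p 0.406 in edgeR). In the PDGF receptor pathway, Shc1, an adaptor that binds activated receptors, stood at 45.3 ± 2.68 CPM with both mimics and 62.4 ± 9.19 CPM with miR-145 alone (log2 fold change -0.47, unadjusted edgeR p 0.0248). That was the 1 unadjusted p under 0.05 among the 13 genes of that list, of which 5 lay above and 8 below 0.

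Among the 6 SoxD and SoxE factors, 4 lay above and 2 below 0. Sox9, a SoxE factor of glial precursors and astrocytes, stood at 53.7 ± 11.0 CPM with both mimics and 71.6 ± 6.44 CPM with miR-145 alone (log2 fold change -0.43), and Sox10, the SoxE factor that drives myelin genes, at 535 ± 137 and 444 ± 13.7 CPM (0.26). Of the Foxj genes, Foxj2 had a log2 fold change of -0.10. Of 11 fatty acid elongation genes, 6 lay above 0. Elovl6, an elongase of saturated fatty acids, had 20.4 ± 1.71 CPM with both mimics and 14.1 ± 5.22 CPM with miR-145 alone (log2 fold change 0.52), and its groups did not overlap, as was so in this direction for 13.6% of all genes. Of 11 genes of the Lingo and Nogo receptor complex, 6 lay above 0, and the Nogo receptor homologue Rtn4rl1 had 7.31 ± 1.33 and 10.7 ± 1.88 CPM (log2 fold change -0.55).

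Markers of 3 cell types each shared 1 sign in this comparison, although no marker was called. All 12 markers of maturing OLs had log2 fold changes above 0 (median 0.35), with a summed level from 20030 to 35070 CPM with both mimics and from 16050 to 25610 CPM with miR-145 alone. All 11 microglia markers lay below 0 (median -0.43), with sums from 388 to 689 CPM and from 417 to 1035 CPM. All 8 astrocyte markers also lay below 0 (median -0.31), with sums from 6417 to 10870 CPM and from 8919 to 13130 CPM. The ranges of the sums overlapped between the groups for each of the 3 lists, and no marker of these lists was at 0 in any group. Of the 9 OPC markers tested, 4 lay above and 5 below 0. The part of these markers in the values of Zbtb18 and Elovl7 was not tested.

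Against OL miR-ctl, OLs given both mimics had lower means of Pdgfra, Sox6, Foxj3 and Lingo1, and no gene was called. In edgeR 0 of 15436 genes passed (0%) and 956 (6.19%) had an unadjusted p under 0.05, whereas DESeq2 called 106, none of them among the 6. Pdgfra stood at 185 and 148 CPM with both mimics and at 265 and 186 CPM in OL miR-ctl. Its groups were separated by a narrow gap, as was so in this direction for 19.4% of all genes. The log2 fold change of Pdgfra was -0.44 (SE 0.22, 95% interval -0.99 to 0.12, unadjusted edgeR p 0.0991). It was -0.15 without OL miR-ctl replicate 1 and -0.67 without OL miR-ctl replicate 2.

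The other 5 genes overlapped between OL miR-145+miR-219 and OL miR-ctl. Sox6 and Lingo1 had log2 fold changes of -0.32 (SE 0.27) and -0.42 (SE 0.28), both resting on OL miR-ctl replicate 1, which was the higher library for each at 163 and 45.7 CPM. Without it the values were 0.10 and 0.015. Foxj3 was at -0.10 (SE 0.14), Zbtb18 at 0.01 (SE 0.14) and Elovl7 at 0.18 (SE 0.34), and each changed sign with 1 library left out. Foxj3 went to 0.05 and Elovl7 to -0.32 without OL miR-145+miR-219 replicate 2, and Zbtb18 went to -0.15 without OL miR-145+miR-219 replicate 1 and to -0.05 without OL miR-ctl replicate 2. Elovl7 also went to -0.03 without OL miR-ctl replicate 1.

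Astrocyte markers also shared 1 sign here, with all 8 above 0 (median log2 fold change 0.55). Of these, 5 had both libraries above both controls, as did 2673 of all 15436 genes tested. The 8 markers summed to 6417 to 10870 CPM with both mimics and to 5388 to 6390 CPM in OL miR-ctl. Of 11 microglia markers, 8 lay above 0 (median 0.50), with sums from 388 to 689 CPM and from 410 to 608 CPM. Of 12 markers of maturing OLs 8 lay above 0, and of 9 OPC markers 2. No marker was called, and their part in the levels of the 6 genes was not tested.

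In OL miR-145, the libraries titled as miR-145 alone, 3 of the 6 genes had both libraries below both control libraries and 1 had both above, but none was called. EdgeR called 0 of 15461 genes (0%), and an unadjusted p under 0.05 was found for 2067 (13.4%), whereas DESeq2 called 649, none of them among the 6. Groups did not overlap for 24.4% of all genes in the lower direction and for 22.9% in the higher. Pdgfra stood at 169 and 174 CPM against 265 and 186 CPM (log2 fold change -0.39, SE 0.19, unadjusted edgeR p 0.0836). Sox6 stood at 95.4 and 90.7 CPM against 163 and 97.9 CPM (log2 fold change -0.48, SE 0.24), a gap that was narrow against its second control library. Both values rested on OL miR-ctl replicate 1, since without it Pdgfra was at -0.11 and Sox6 at -0.065, whereas without OL miR-ctl replicate 2 they were at -0.63 and -0.81. Elovl7 stood at 4.39 and 7.42 CPM against 7.56 and 10.5 CPM (log2 fold change -0.60, SE 0.33), and its value was -0.27 without OL miR-145 replicate 1, -0.35 without OL miR-ctl replicate 2 and -1.04 without OL miR-145 replicate 2.

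Zbtb18 was the gene that lay above its controls, at 44.0 and 39.2 CPM against 35.2 and 32.7 CPM. Its log2 fold change was 0.30 (SE 0.12, 95% interval -0.01 to 0.60, unadjusted edgeR p 0.0544, adjusted p 0.381). Foxj3 (0.03, SE 0.11) and Lingo1 (-0.44, SE 0.35) overlapped between the groups, and Foxj3 lay just under 0 without OL miR-145 replicate 1 (-0.011) or without OL miR-ctl replicate 2 (-0.016). Lingo1 was at -0.005 without OL miR-ctl replicate 1, -0.08 without OL miR-145 replicate 2, -0.77 without OL miR-ctl replicate 2 and -0.90 without OL miR-145 replicate 1. The 3 comparisons among OL groups share libraries, so the values of a gene in them are not independent. Astrocyte markers stood apart in the same libraries, since all 8 had both OL miR-145 libraries above both controls (median log2 fold change 0.88), with sums from 8919 to 13130 CPM against 5388 to 6390 CPM, although none was called. All 11 microglia markers also lay above 0 (median 0.73), but only 4 had both OL miR-145 libraries above both controls. Their sums overlapped, from 417 to 1035 CPM against 410 to 608 CPM. Of 12 markers of maturing OLs, 7 lay below 0. The part of these markers in the levels of the 6 genes was not tested.

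**Figure D4:**
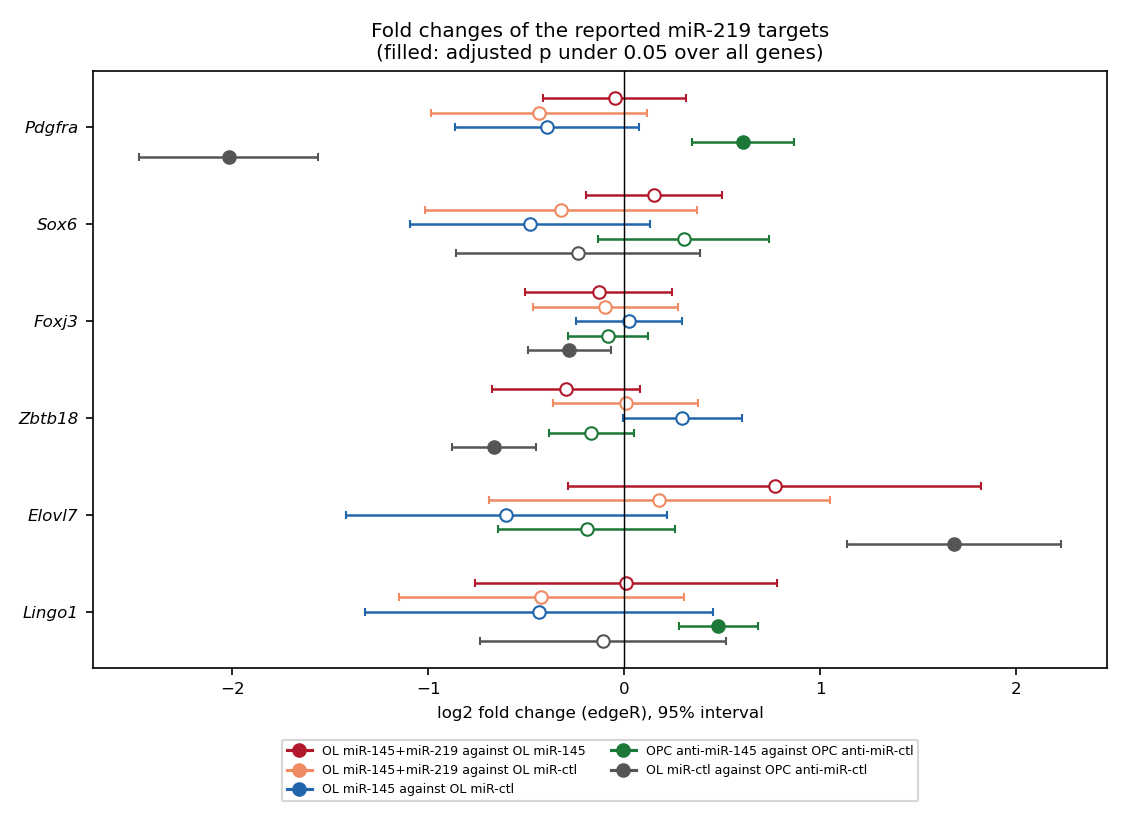
Log2 fold changes of the 6 genes in the 5 comparisons, with 95% intervals from edgeR and filled points where the adjusted p was under 0.05. All intervals of the 3 comparisons among OL groups include 0, and filled points are Pdgfra and Lingo1 in OPCs and Pdgfra, Foxj3, Zbtb18 and Elovl7 between OLs and OPCs.

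The miR-145 inhibitor in OPCs was accompanied by higher Pdgfra and Lingo1 and by no call for the other 4 genes. This comparison addressed the loss of miR-145 and held no miR-219 oligonucleotide. Of 15496 genes tested, 4348 were called (28.1%), with 12.1% called higher and 16% called lower, so 2 of 6 is close to this background. Pdgfra stood at 1228 and 1524 CPM with the inhibitor and at 915 and 908 CPM in OPC anti-miR-ctl, a gap wider than the spread of either pair, and groups were separated in this direction for 32.8% of all genes. Its log2 fold change was 0.61 (SE 0.11, 95% interval 0.35 to 0.87, adjusted p 0.00709 in edgeR), or 1.52-fold.

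Lingo1 stood at 53.7 and 54.4 CPM with the inhibitor and at 40.7 and 37.5 CPM without it. This corresponded to a log2 fold change of 0.48 (SE 0.09, 95% interval 0.28 to 0.68, adjusted p 0.00675 in edgeR), or 1.39-fold. Both calls depended on the estimate of spread: with all 5 groups in 1 edgeR fit the adjusted p was 0.0528 for Pdgfra and 0.295 for Lingo1. The call of Lingo1 was also lost without OPC anti-miR-ctl replicate 2 (log2 fold change 0.41, adjusted p 0.12).

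Sox6 spread from 148 to 227 CPM over the 2 inhibitor libraries, against 165 and 141 CPM in the controls. Its log2 fold change of 0.30 (SE 0.18, adjusted p 0.26 in edgeR) came from replicate 2 of OPC anti-miR-145. It was -0.02 without that library, and 0.57 with a call (adjusted p 0.000313) without OPC anti-miR-145 replicate 1. Zbtb18 stood at 44.4 and 50.4 CPM with the inhibitor and at 53.3 and 54.2 CPM in the controls, below both, as was so for 35.1% of all genes. Its log2 fold change was -0.17 (SE 0.09, adjusted p 0.214 in edgeR), and it was called at -0.25 (adjusted p 0.0259) without OPC anti-miR-145 replicate 2. Elovl7 had both inhibitor libraries, at 2.56 and 2.29 CPM, below the controls at 2.85 and 2.74 CPM (log2 fold change -0.19, SE 0.19), and Foxj3 overlapped (-0.08, SE 0.09).

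Other genes around Pdgfra and Lingo1 were called in both directions in OPCs. Of 13 genes of the PDGF receptor pathway, a list that includes Pdgfra, 3 were called higher and 1 lower. Pdgfc, a PDGF ligand, rose from 9.04 ± 0.382 to 18.5 ± 0.0411 CPM (adjusted p 0.000454 in edgeR) and Plcg1, a phospholipase recruited by the receptor, from 127 ± 1.31 to 156 ± 5.04 CPM (adjusted p 0.0246 in edgeR). Cspg4, the NG2 proteoglycan of OPCs, fell from 568 ± 11.5 to 383 ± 49.8 CPM (adjusted p 0.00723 in edgeR). Of 11 genes of the Lingo and Nogo receptor complex, Lingo1 included, 5 were called higher and 1 lower. Lingo3 rose from 3.92 ± 0.456 to 13.5 ± 0.91 CPM, and Ngfr, the low-affinity neurotrophin receptor, fell from 3.64 ± 0.246 to 2.04 ± 0.039 CPM.

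Of the 6 SoxD and SoxE factors, 3 were called higher (Sox9, Sox8 and Sox10) and 1 lower (Sox13). Sox9 had the smallest p of them and rose from 14.4 ± 0.673 to 78.8 ± 4.99 CPM (log2 fold change 2.46, adjusted p 2.72e-05 in edgeR), whereas Sox6, of the SoxD group, was not called. Of the 6 tested genes among other reported miR-219 targets, 2 were called lower, Mapt (log2 fold change -0.43) and Hes5 (-1.76), and none higher. Of 11 fatty acid elongation genes 1, Hacd1, was called higher (log2 fold change 0.58), and neither tested Foxj gene was called. OPC markers gave 2 calls higher and 3 lower of 9 (median 0.001), with Pdgfra itself among the genes higher. Their sums ran from 4690 to 5810 CPM with the inhibitor and from 4860 to 4996 CPM without it. Microglia markers gave 6 calls higher and 5 lower of 11, with sums from 903 to 1138 CPM against 1023 to 1101 CPM, and astrocyte markers gave 2 higher and 3 lower of 8, with sums from 474 to 525 CPM against 639 to 679 CPM. The part of these markers in the levels of Pdgfra and Lingo1 was not tested.

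Control OLs differed from control OPCs in 4 of the 6 genes, with Pdgfra, Zbtb18 and Foxj3 lower and Elovl7 higher. The background was high, with 9042 of 15721 genes called (57.5%), 28.8% higher and 28.7% lower, so 4 of 6 is close to it. These groups also differ in medium, control oligonucleotide and time after transfection, which cannot be told apart from the cell stage. Pdgfra stood at 265 and 186 CPM in OLs and at 915 and 908 CPM in OPCs, 4.05-fold lower (log2 fold change -2.02, SE 0.18, adjusted p 0.000624 in edgeR). Zbtb18 fell from 53.3 and 54.2 CPM in OPCs to 35.2 and 32.7 CPM in OLs (log2 fold change -0.67, SE 0.08, adjusted p 0.00204 in edgeR).

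Foxj3 moved least among the called genes, from 54.6 and 50.3 CPM in OPCs to 44.4 and 42.3 CPM in OLs. Its log2 fold change was -0.28 (SE 0.08, adjusted p 0.0364 in edgeR). This call was lost in DESeq2 (adjusted p 0.054), with all 5 groups in 1 fit (adjusted p 0.0886) and without OPC anti-miR-ctl replicate 1 (adjusted p 0.278) or replicate 2 (adjusted p 0.142). Elovl7 rose from 2.85 and 2.74 CPM in OPCs to 7.56 and 10.5 CPM in OLs, 3.21-fold higher (log2 fold change 1.68, SE 0.22, adjusted p 0.00209 in edgeR).

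Sox6 and Lingo1 were not called between the stages, and their 2 OL miR-ctl libraries lay far apart, at 163 and 97.9 CPM for Sox6 and at 45.7 and 27.0 CPM for Lingo1. The log2 fold changes were -0.24 (SE 0.25, adjusted p 0.453 in edgeR) for Sox6 and -0.11 (SE 0.25, adjusted p 0.737 in edgeR) for Lingo1. Without OL miR-ctl replicate 1 both genes were called lower, Sox6 at -0.65 (adjusted p 3.37e-05) and Lingo1 at -0.54 (adjusted p 0.000253). Without OL miR-ctl replicate 2, Sox6 was at 0.08 (adjusted p 0.413) and Lingo1 was called higher at 0.22 (adjusted p 0.0399). The direction of Lingo1 between stages therefore rested on which control OL library was used.

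The lists around the 6 genes are given as counts beside the 57.5% of all genes called between the stages. Of 11 fatty acid elongation genes, 8 were called higher in OLs and none lower, Elovl7 included. The others named by smallest p were Elovl2 (0.963 ± 0.0719 CPM in OPCs and 17.8 ± 0.333 CPM in OLs), Hacd3 and Elovl5, all of the elongation cycle. Of 13 genes of the PDGF receptor pathway, 6 were called higher and 3 lower, with the receptor Pdgfra and its partner Cspg4 (568 ± 11.5 to 74.5 ± 25.8 CPM) lower and the ligands Pdgfb and Pdgfc higher. Of the SoxD and SoxE factors, Sox9, Sox8 and Sox10 were among the 4 called higher, and Sox5, the SoxD relative of Sox6, fell from 14.9 ± 0.53 to 5.70 ± 1.64 CPM. Of 11 genes of the Lingo and Nogo receptor complex 6 were called higher, among them Rtn4, which encodes Nogo, and 1 lower, the ligand Omg. Of the other reported miR-219 targets, Mapt (log2 fold change 1.13) and Camk2g (0.35) were higher and Etv5 (-2.60) lower. Foxj2 was called higher (0.36), opposite to Foxj3.

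The stage labels were checked on the same libraries. Of 12 markers of maturing OLs, 10 were called higher in OLs and none lower, with sums from 17620 to 31860 CPM against 1359 to 1425 CPM in OPCs. Of 9 OPC markers, Pdgfra itself included, 6 were called lower, while Gpr17, Tnr and Vcan were called higher. The OL libraries also held more astrocyte marker RNA, with 7 of 8 astrocyte markers called higher (Gfap 4489 ± 438 CPM in OLs and 8.02 ± 0.299 CPM in OPCs). Microglia markers were called higher for 1 and lower for 5 of 11. The part of these cells in the levels of the 6 genes was not tested.

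Ordered by mean level, Pdgfra was highest in OPC anti-miR-145, followed by OPC anti-miR-ctl, OL miR-ctl, OL miR-145 and OL miR-145+miR-219, and of these neighbours the last pair overlapped. Sox6 had the same first 3 groups, followed by OL miR-145+miR-219 and OL miR-145, and every neighbouring pair overlapped. Foxj3 was highest in OPC anti-miR-ctl and lowest in OL miR-145+miR-219, and overlap was found between the OPC groups and among the 3 OL groups. Zbtb18 ran from OPC anti-miR-ctl through OPC anti-miR-145, OL miR-145 and OL miR-145+miR-219 to OL miR-ctl, with overlap between the last pair. Elovl7 ran from OL miR-145+miR-219 through OL miR-ctl, OL miR-145 and OPC anti-miR-ctl to OPC anti-miR-145, with overlap only between the first pair. Lingo1 had the order of Pdgfra for its first 3 groups, followed by OL miR-145+miR-219 and OL miR-145, with overlap from OPC anti-miR-ctl downwards.

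For each gene, the 2 other genes with the most similar pattern were found by Pearson's r of log2 CPM over the 10 libraries, among 14301 genes with a symbol. The libraries fall into an OL set and an OPC set, so r mainly reflects the stage where a gene differs between them, and it is given as a description. Pdgfra was closest to Lima1 (r = 0.998) and Slc39a10 (0.998), Sox6 to Zfp189 (0.986) and Ago2 (0.974), and Foxj3 to Sncb (0.960) and LOC102549061 (0.952). Zbtb18 was closest to Cd99l4 (0.980) and Msrb3 (0.977), Elovl7 to Cabp2 (0.987) and Dgka (0.979), and Lingo1 to Insig1 (0.978) and Tspoap1 (0.973). Some of these neighbours lay near the floor, where r rests on few counts. LOC102549061 ranged from 0 to 0.321 CPM in OLs, Cabp2 from 0 to 0.0468 CPM in OPCs and Sncb from 0.477 to 1.04 CPM in OLs. None of the 6 genes was among the closest 2 of another.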

How the data were processed

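RNA from 10 libraries of primary rat OPCs and OLs (2 in each of 5 groups) was sequenced from poly-A libraries (TruSeq Stranded mRNA). Reads were quantified by the authors with Salmon 0.12.0 on GENCODE transcripts of the Rnor6.0 build and summarised by tximport, and the authors deposited estimated counts for each gene without normalization, which were rounded here. The authors' table of fold changes and p-values for OL miR-145 was used only for gene symbols (14076 genes, with 713 more matched to RefSeq by Entrez ID). Columns of counts without a sample numbered 0.

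Each of 5 comparisons was fitted on its 4 libraries with edgeR 4.0.16 in R 4.3.3 (TMM, glmQLFit, glmQLFTest) after removing genes that did not reach 5 counts in 2 or more of them. The SE was the absolute log2 fold change divided by the square root of F, and 95% intervals used the total degrees of freedom. Library totals started at 33505706 counts, and groups held 2 libraries each. Of 115 list genes, 103 were matched. The members and lists were chosen with earlier results of these data known. The text names the 6 members, up to 3 called genes per list and direction with the smallest p (up to 2 by unadjusted p where none was called), and the 2 genes nearest to each member by Pearson's r (log2 CPM, prior count 2). Alternatives were DESeq2 1.42.0, DESeq2's size factors, no filter, a filter of 10 counts, all 5 groups in 1 fit, a replicate block and leaving out each library. The lone library left in a group was then assumed to vary like the other group. The scripts were tested on simulated data.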

Additional observations from a re-analysis of the deposited data

How the results depend on the processing

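Of 300 values of the 6 genes under alternatives, 266 kept their direction and their side of the threshold, 17 changed sign, and, in an unchanged direction, 9 gained and 8 lost a call. All 17 changes of sign came from leaving out 1 library, and the cause was not tested. Of these 17, Lingo1 between OL miR-ctl and OPC anti-miR-ctl also gained a call (0.22, adjusted p 0.0399, without OL miR-ctl replicate 2). In OL miR-145+miR-219 against OL miR-145 the log2 fold changes then ranged from -0.215 to 0.1 for Pdgfra, -0.002 to 0.292 for Sox6, -0.306 to 0.028 for Foxj3 and -0.338 to 0.467 for Lingo1. In OL miR-145+miR-219 against OL miR-ctl they ranged from -0.647 to 0.098 for Sox6, -0.269 to 0.053 for Foxj3, -0.152 to 0.146 for Zbtb18, -0.319 to 0.548 for Elovl7 and -0.754 to 0.015 for Lingo1. In OL miR-145 against OL miR-ctl Foxj3 ranged from -0.016 to 0.063. In OPCs Sox6 ranged from -0.022 to 0.568, and between OL miR-ctl and OPC anti-miR-ctl Sox6 ranged from -0.648 to 0.083 and Lingo1 from -0.536 to 0.219. Counts of called genes depended on the tool. DESeq2 called 9 genes in OL miR-145+miR-219 against OL miR-145, 106 in OL miR-145+miR-219 against OL miR-ctl and 649 in OL miR-145 against OL miR-ctl, where edgeR called 0. With no filter edgeR called 1 gene in OL miR-145+miR-219 against OL miR-ctl. With all 5 groups in 1 fit it called 32 in OL miR-145 against OL miR-ctl and 2553 in OPCs. With 1 library left out the count ran from 2424 to 7130 in OPCs (7130 without OPC anti-miR-145 replicate 2, 2424 and 2530 without OPC anti-miR-ctl replicate 1 and 2) and from 5016 to 10591 between OL miR-ctl and OPC anti-miR-ctl (5071 and 5016 without OPC anti-miR-ctl replicate 1 and 2).

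Groups share replicate numbers, but no source ties equal numbers to a common animal or culture, and with 2 pairs per comparison the numbers were not treated as pairs. The correlation of same-numbered deviations was 0.358 in OL miR-145+miR-219 against OL miR-145 and between -0.048 and 0.204 elsewhere. With a replicate block edgeR called 184 genes in OL miR-145+miR-219 against OL miR-145, 132 in OL miR-145+miR-219 against OL miR-ctl and 2272 in OL miR-145 against OL miR-ctl. In the first, Elovl7 was called higher (log2 fold change 0.76, adjusted p 0.033), as were 66 of all 15501 genes, and the other 5 genes were not called. In the last, Pdgfra (-0.37, adjusted p 0.0295), Sox6 (-0.44, adjusted p 0.00773), Elovl7 (-0.63, adjusted p 0.0314) and Lingo1 (-0.44, adjusted p 0.0206) were called lower. Of all 15461 genes in OL miR-145 against OL miR-ctl, 726 were called lower and 1546 higher with the block. The call of Foxj3 between OL miR-ctl and OPC anti-miR-ctl was lost (adjusted p 0.0547). The block changed no other call of the 6 genes.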

Other observations

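Fibroblast and mural cell markers were scarce but uneven between the OL groups. Their summed level was 45.7 to 55.8 CPM with both mimics, 46.6 to 90.4 CPM with miR-145 alone and 19.3 to 28.4 CPM in OL miR-ctl. All 5 tested in OL miR-145 against OL miR-ctl had both OL miR-145 libraries above both controls (median log2 fold change 3.13), and none was called. Only 4 were tested in OL miR-145+miR-219 against OL miR-ctl. A marker scarce in the controls could thus pass the filter on low counts through the OL miR-145 libraries, which favours values above the controls. Groups were separated in this direction for 22.9% of all genes. The control values lay near the floor, with 4 of the 6 matched markers under 1 CPM in OL miR-ctl. The OL miR-145 libraries also lay far apart for Col3a1 (16.5 ± 19.0 CPM against 0.462 ± 0.476 CPM) and Col1a2 (6.03 ± 7.01 CPM against 0.483 ± 0.186 CPM). Neuron markers summed to 382 to 510 CPM with both mimics, 457 to 497 CPM with miR-145 alone and 370 to 489 CPM in OL miR-ctl. Endothelial markers summed to 21.1 CPM or less in every group.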
